A study of Mus musculus with 4 samples.

Results

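The genes described here are 34 markers of Kupffer cells, of macrophages in general and of monocytes, measured by RNA-seq in whole liver of wild-type (WT) and Fto knockout (KO) mice. They were taken by symbol from the 37315 gene identifiers of the count files. They were grouped here as 8 genes of resident Kupffer cells, 22 general macrophage genes and 4 genes of monocytes. Fto encodes an enzyme that removes methyl groups from RNA. Both genotypes are C57BL/6 mice aged 23 weeks, with 2 libraries of polyadenylated RNA each; the labels name no treatment and do not say how the knockout was made, in which cells it acts, or whether each library is a separate animal. The p-values therefore set the difference between genotypes only against the spread of libraries within a genotype, estimated partly from all genes. That spread may be technical.

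Kupffer cells are the resident macrophages of the liver. They sit inside the sinusoids, the capillaries between the plates of hepatocytes, and clear bacteria, complexes of antibody and antigen, dead cells and ageing red cells from the blood. Their survival depends on the receptor Csf1r and its ligands, and the factor PU.1, encoded by Spi1, is needed throughout the lineage. Monocytes that enter the liver from the blood carry Ccr2 and Ly6c2, and can take up Kupffer characters later, with Timd4 among the last to appear.

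The libraries held between 39549592 and 44689114 counts. Levels are given as CPM, read counts scaled to the TMM-adjusted library size, and 1 read was worth between 0.0216 and 0.0263 CPM. Reads of Fto numbered 1749 and 1292 in WT, against 607 and 486 in KO (log2 fold change -1.57, adjusted p = 0.0109, edgeR quasi-likelihood test), so the libraries labelled KO were those with less Fto. The hepatocyte gene Alb stood between 53495 and 70110 CPM in the 4 libraries. All 34 macrophage genes passed the filter on low counts, with between 3 and 5041 reads in a library. RNA of whole liver cannot tell more macrophages from more RNA per macrophage, for any result below.

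Most of the 34 genes stood higher in KO liver, and 3 passed the test over all genes: the scavenger receptor Marco, the Fc receptor Fcgr4 and the growth factor receptor Csf1r. Those 3 of 34 compare with 0.961% of all 13836 tested genes called higher and 1.91% called in either direction (adjusted p under 0.05, edgeR quasi-likelihood test); no member was called lower, by edgeR or by DESeq2, where 0.947% of all genes were in edgeR, and 1 member had a negative log2 fold change with an unadjusted p under 0.05. The fitted log2 fold change was above 0 for 29 of the 34, against 50.8% of all tested genes, and its median was 0.81, against 0.01 over all tested genes. In 26 genes both KO libraries lay above both WT libraries, against 21.6% of tested genes, and in 4 they lay below both, against 20.4%. At an unadjusted p under 0.05, 23 were higher, against 6.53% of tested genes.

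Resident Kupffer genes had a median log2 fold change of 0.88 with 8 of 8 above 0, and general macrophage genes one of 0.81 with 19 of 22 above 0. Monocyte genes had a median of 0.01 with 2 of 4 above 0. With edgeR 1 resident gene, 2 general genes and no monocyte gene were called; 0 monocyte genes had an unadjusted p under 0.05, and DESeq2 called 0. The differences between the groups were not tested, and the monocyte genes had between 3 and 72 reads in a library.

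**Figure D1:**
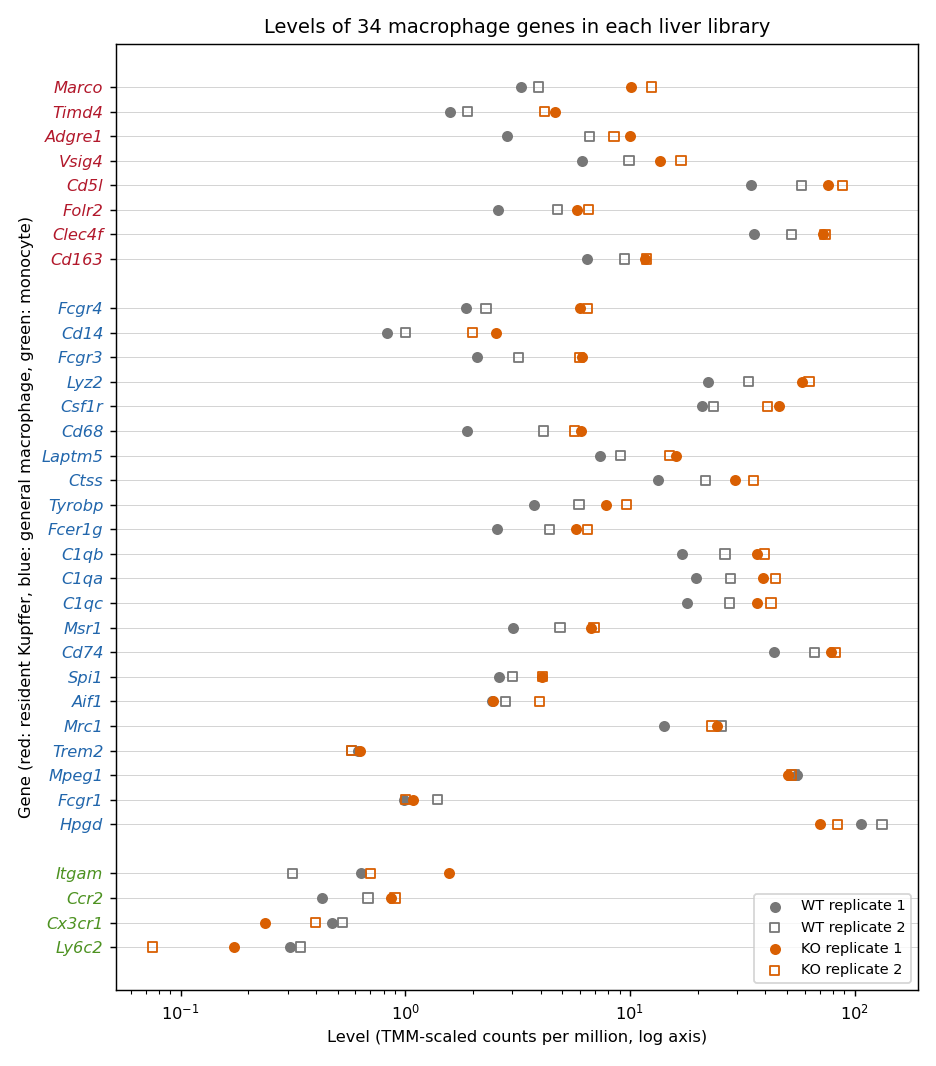
Level of each of the 34 genes in the 4 libraries, in TMM-scaled CPM on a log axis; each point is 1 library, grey for WT and orange for KO, filled circles for replicate 1 and open squares for replicate 2. In most rows the order from left to right is WT replicate 1, WT replicate 2 and then both KO libraries, while Hpgd, Cx3cr1, Ly6c2 and Mpeg1 have both KO points left of both WT points.

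The WT libraries themselves differed. WT replicate 1 was the lowest of the 4 libraries for 28 of the 34 genes, and for 25 the order was WT replicate 1, WT replicate 2 and then both KO libraries. WT replicate 2 was above WT replicate 1 in 31 of 34 genes, against 52.3% of all tested genes, and KO replicate 2 was above KO replicate 1 in 22, against 49.1%. As log2 ratios (CPM plus 0.5), the resident genes had a median of 0.60 for WT replicate 2 over WT replicate 1, of 1.11 for KO over WT among the libraries numbered 1, and of 0.55 among those numbered 2. For these genes the WT libraries lay as far apart as the KO and WT libraries numbered 2. General genes gave 0.51, 1.02 and 0.55 in the same order. Without WT replicate 1 the fitted median fell from 0.88 to 0.49 for resident genes and from 0.81 to 0.51 for general genes, and 3 members were called (Marco, Fcgr4 and Timd4, but not Csf1r), where 4.42% of all tested genes were. Without WT replicate 2 the medians were 1.28 and 1.11, and 20 members were called, where 3.6% of all tested genes were.

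**Figure D2:**
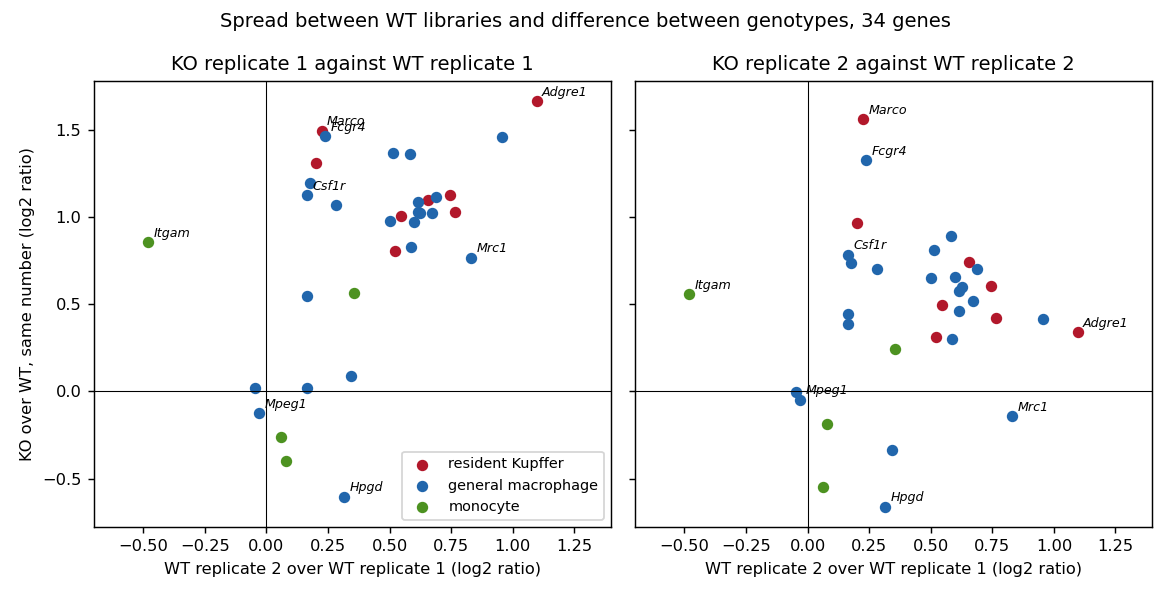
Log2 ratio (CPM plus 0.5) of KO over WT with the same replicate number (vertical axes; number 1 on the left, number 2 on the right) against that of WT replicate 2 over WT replicate 1 (horizontal axes), with 1 point per gene, red for resident, blue for general and green for monocyte genes. Marco and Fcgr4 stand high on both sides with small ratios between the WT libraries (0.22 and 0.24), whereas Adgre1, with a ratio of 1.10 between the WT libraries, is at 1.66 on the left and 0.34 on the right.

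Marco, a scavenger receptor that binds bacteria and particles, showed the clearest difference among the resident genes. It had 3.28 and 3.91 CPM in the WT libraries and 10.1 and 12.5 CPM in the KO libraries. The groups were far apart relative to the spread within them. Marco rose 3.15-fold (log2 fold change 1.66, SE 0.232, adjusted p = 0.0155, edgeR), and was called under all 9 other settings tried, with log2 fold changes from 1.49 to 1.80. Its gene lies on chromosome 1, 120474538 to 120505024, minus strand (mm10, as all positions here).

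Timd4, a receptor for phosphatidylserine on dying cells and a mark of long-lived resident Kupffer cells, had 1.58 and 1.89 CPM in WT against 4.65 and 4.17 CPM in KO. The groups did not overlap, and the log2 fold change of 1.35 (SE 0.263) narrowly missed the threshold (adjusted p = 0.052, edgeR). It was called under 8 of the 9 other settings and not with library size alone (adjusted p = 0.0763).

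The other resident genes had smaller fitted differences. Clec4f, a lectin that in mouse liver is restricted to Kupffer cells, had 35.7 and 52.4 CPM in WT against 72.1 and 73.9 CPM in KO (log2 fold change 0.73, adjusted p = 0.193). Cd5l, a secreted scavenger protein that protects macrophages from lipid-induced death, had 34.5 and 58.2 CPM in WT against 76.0 and 88.6 CPM in KO (0.83, adjusted p = 0.218). In both genes the KO libraries were close to each other and the WT libraries were not. Vsig4, the complement receptor that captures opsonised bacteria, had 6.11 and 9.90 CPM in WT against 13.6 and 16.9 CPM in KO (0.93, adjusted p = 0.168).

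Cd163, which takes up haemoglobin bound to haptoglobin, had 6.46 and 9.48 CPM in WT against 11.7 and 11.9 CPM in KO, and its log2 fold change of 0.56 was the smallest of the resident group. Folr2, a folate receptor, had 2.59 and 4.76 CPM in WT against 5.82 and 6.52 CPM in KO (log2 fold change 0.75). Adgre1, which encodes the F4/80 antigen, had the largest ratio between WT libraries among the members, 2.83 against 6.62 CPM, with 10.04 and 8.50 CPM in KO. None of these 3 passed (adjusted p from 0.318 to 0.366, edgeR). Without WT replicate 2 the log2 fold change of Adgre1 was 1.70 and without WT replicate 1 it was 0.48. Folr2 shares 975 exon bases with the antisense gene Gm10602, and the library kit does not mark strand, so reads there cannot be assigned to one of the genes.

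Among the general genes, Csf1r is the receptor through which Csf1 and Il34 keep macrophages alive. It had 21.0 and 23.6 CPM in WT against 46.3 and 40.9 CPM in KO. The WT libraries were nearly equal and neither KO library came close to them. Csf1r rose 1.96-fold (log2 fold change 0.97, SE 0.185, adjusted p = 0.0478, edgeR), but the call was lost with library size alone (adjusted p = 0.0738), without WT replicate 1 (0.067) and without KO replicate 1 (0.0842). It shares 873 exon bases with Hmgxb3 on the opposite strand, which had a log2 fold change of 0.34 (adjusted p = 0.676). Spi1, which encodes PU.1, had 2.62 and 2.99 CPM in WT against 4.04 and 4.07 CPM in KO (0.53, adjusted p = 0.421).

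The Fc receptors, which bind antibody-coated targets, diverged. Fcgr4 had 1.86 and 2.29 CPM in WT against 6.01 and 6.47 CPM in KO, and rose 3.01-fold (log2 fold change 1.59, SE 0.250, adjusted p = 0.0238, edgeR), with a call under all 9 other settings. Fcgr3 had 2.08 and 3.18 CPM in WT against 6.14 and 5.95 CPM in KO (1.20, adjusted p = 0.0858). Fcgr1, the high-affinity receptor, overlapped between genotypes, with 0.990 and 1.39 CPM in WT and 1.08 and 0.9995 CPM in KO (log2 fold change -0.19). The inhibitory receptor Fcgr2b, which in liver is mainly a gene of sinusoidal endothelium, overlapped as well, at 15.1 and 24.2 CPM in WT and 24.1 and 20.4 CPM in KO. Fcgr3 is similar in sequence to Fcgr2b, and reads that match both may have been lost or split.

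The log2 fold changes of the signalling adaptors Fcer1g and Tyrobp lay between those of Fcgr1 and Fcgr3. Fcer1g, the chain that carries the signal of activating Fc receptors, had 2.57 and 4.39 CPM in WT against 5.73 and 6.50 CPM in KO (log2 fold change 0.82). Tyrobp, also known as DAP12, the adaptor of Trem2 and other receptors, had 3.75 and 5.94 CPM in WT against 7.83 and 9.62 CPM in KO (0.85). Neither passed (adjusted p = 0.296 and 0.230). Trem2 itself, a lipid receptor of macrophages in injured tissue, had 26 and 22 reads in WT against 29 and 23 in KO (0.01). Fcgr4, Fcgr3 and Fcer1g lie close together on chromosome 1, within 171018920 to 171234365, so they share a neighbourhood as well as a pathway.

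C1qa, C1qb and C1qc encode the chains of C1q, which starts the classical complement pathway and which macrophages supply. C1qa had 19.7 and 28.1 CPM in WT against 39.2 and 44.4 CPM in KO (log2 fold change 0.81, adjusted p = 0.149). C1qb and C1qc had 0.81 and 0.79, with adjusted p = 0.177 and 0.201. The chains kept their proportions: per exon length, C1qa gave between 41.0% and 43.1% of the sum of the 3 in each library, C1qb between 35.8% and 37.4%, and C1qc between 21.0% and 21.9%. The genes stand side by side on chromosome 4, from 136880129 to 136898803, all on the minus strand.

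Genes of uptake and of the lysosome mostly followed the same order of libraries. Lyz2, macrophage lysozyme, had 22.3 and 33.6 CPM in WT against 58.1 and 62.7 CPM in KO (log2 fold change 1.11, SE 0.232, adjusted p = 0.0623). Ctss, a protease that prepares antigens, had 13.3 and 21.7 CPM in WT against 29.3 and 35.6 CPM in KO (0.89, adjusted p = 0.177). Laptm5, a lysosomal membrane protein of blood cells, had 7.36 and 9.06 CPM in WT against 16.0 and 15.0 CPM in KO (0.92, adjusted p = 0.0737). None of these 3 was called by edgeR, and all 3 were called by DESeq2. Reads that match both Lyz2 and its close copy Lyz1 may have been lost or split, so the level of Lyz2 is uncertain.

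Cd68, a lysosomal glycoprotein, had 1.89 and 4.12 CPM in WT against 6.06 and 5.67 CPM in KO (log2 fold change 0.97, adjusted p = 0.306), with a wide gap between its WT libraries. Cd14, the co-receptor for lipopolysaccharide, had 0.825 and 0.998 CPM in WT against 2.53 and 1.999 CPM in KO (1.31, adjusted p = 0.108). Msr1, a scavenger receptor, had 3.02 and 4.89 CPM in WT against 6.68 and 6.92 CPM in KO (0.79). Cd74, the invariant chain of class II antigen presentation, which B cells and dendritic cells also make, had 44.0 and 66.3 CPM in WT against 78.2 and 81.8 CPM in KO (0.54). The groups did not overlap in any of these 4, and none passed.

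Some of the general genes did not follow. Hpgd, which breaks down prostaglandins, had 106 and 132 CPM in WT against 69.9 and 83.6 CPM in KO. Both KO libraries were below both WT libraries (log2 fold change -0.64, SE 0.197, adjusted p = 0.203). Mpeg1, which encodes a pore-forming protein of phagocytes, had 55.2 and 54.1 CPM in WT against 50.6 and 52.3 CPM in KO (-0.09, SE 0.170). Its 4 libraries were nearly equal, with at least 2060 reads in each. Mrc1, the mannose receptor, which sinusoidal endothelium also carries, had 14.2 and 25.7 CPM in WT against 24.5 and 23.2 CPM in KO, with only WT replicate 1 apart (0.26). Aif1, an actin-binding protein also called Iba1, had 2.43 and 2.78 CPM in WT against 2.47 and 3.97 CPM in KO (0.30).

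The monocyte genes were near the limit of detection. Ccr2, the chemokine receptor by which monocytes leave the marrow, had 18 and 26 reads in WT against 40 and 36 in KO (log2 fold change 0.67, SE 0.439). Ly6c2, a surface marker of inflammatory monocytes, had 13 and 13 reads in WT against 8 and 3 in KO (-1.34, SE 0.666). Reads that also match its close copy Ly6c1 may be missing, so its level is uncertain. Cx3cr1, the fractalkine receptor, had 20 and 20 reads in WT against 11 and 16 in KO (-0.65, SE 0.526), and Itgam, the integrin CD11b, had 27 and 12 in WT against 72 and 28 in KO (1.24, SE 0.554). None passed (adjusted p from 0.405 to 0.697). Itgam shares 3450 exon bases with Gm49368 on the same strand and Cx3cr1 shares 78 with an antisense gene, which makes both levels uncertain.

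**Figure D3:**
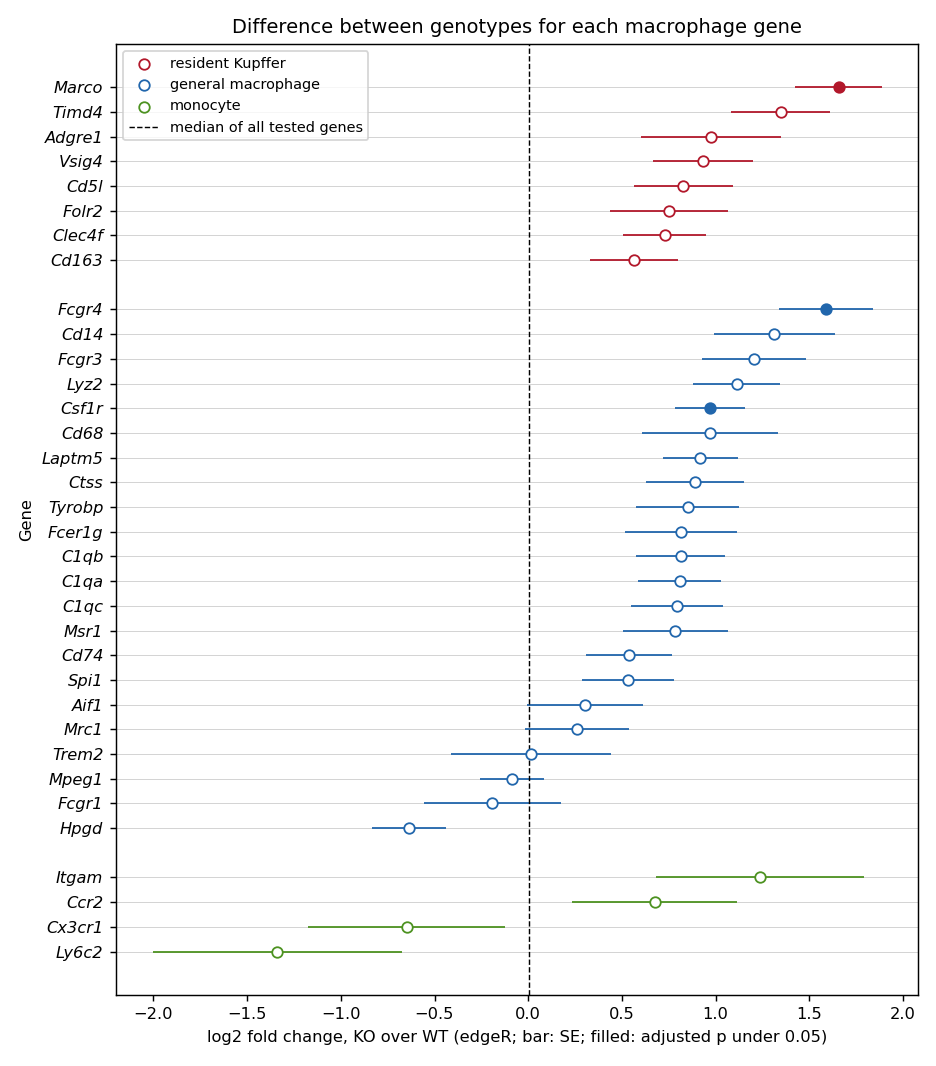
Fitted log2 fold change of KO over WT for each gene, with its SE as a bar, by group; filled points have an adjusted p under 0.05 (edgeR) and the dashed line is the median of all tested genes, 0.01. The resident genes lie between 0.56 and 1.66, the general genes between -0.64 and 1.59, and the 4 monocyte genes on both sides of 0 with the widest bars.

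Levels compared between genes need scaling by length, here CPM per kilobase of exon. In WT the highest means were those of Hpgd (71.0), Cd74 (32.8), C1qa (23.0), Cd5l (22.8), Lyz2 (21.2), C1qb (20.04) and Clec4f (17.8). In KO they were Cd74 (47.6), Lyz2 (45.9), Hpgd (45.6), Cd5l (40.4) and C1qa (40.2). In WT the libraries of Hpgd (63.2 and 78.7) lay apart from those of Cd74 (26.2 and 39.5), while the ranges of the other neighbours named in these orders overlapped. The lowest in WT were Ccr2 (0.0819), Itgam (0.0947), Cx3cr1 (0.111), Ly6c2 (0.118) and Trem2 (0.120).

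As reads per 100 Clec4f reads of the same library, fewer members had both KO libraries above both WT libraries than in CPM. This ratio leaves out any change that all Kupffer genes share, but it rests on Clec4f alone. Marco had 9.17 and 7.47 reads per 100 Clec4f reads in WT against 14.1 and 16.9 in KO. Fcgr4 had 5.21 and 4.36 in WT against 8.34 and 8.76 in KO, Timd4 had 4.42 and 3.61 in WT against 6.45 and 5.65 in KO, and Lyz2 had 62.4 and 64.2 in WT against 80.6 and 84.8 in KO. In these 4 genes the KO ratios lay above both WT ratios.

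By contrast, Csf1r (58.7 and 45.0 in WT, 64.2 and 55.3 in KO) and C1qa (55.1 and 53.5 in WT, 54.4 and 60.0 in KO) overlapped between genotypes on this scale. Clec4f itself stood higher in KO, so on this scale the ratio of an unchanged gene falls. The shares over all tested genes carry that fall, so counts beside them do not show an excess beyond the shared change. Of the 33 genes other than Clec4f, 8 had both KO ratios above both WT ratios, against 2.49% of all tested genes. Both KO ratios lay below both WT ratios in 10, against 71.8%. Those below included Mpeg1, with 155 and 103 reads per 100 Clec4f reads in WT against 70.1 and 70.8 in KO, and Cd163, with 18.1 in each WT library and 16.2 and 16.1 in KO. With 2 libraries a group, no exact permutation test of such a ratio can pass the threshold, so these are descriptions.

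Promoters were compared because PU.1 is, as background, a factor of the whole lineage. The members were chosen as macrophage genes, so motif shares among them do not bear on the order of libraries or on the genotypes. The RefSeq table (GRCm38.p6) held 29 promoters for 26 of the 34 genes; the 250 bases before the start site were searched on both strands for the motif GAGGAA, for the motif AGGAAGT and for the motif GAGGAAGT, nested versions of the PU.1 site in which the longest contains the others. GAGGAA occurred in 65.5% of the member promoters and in 23.3% of all 32851 promoters, AGGAAGT in 31.0% and 7.69%, and GAGGAAGT in 13.8% and 2.44%. Fcgr3, Folr2 and Ly6c2 have 2 promoters each, which can overlap. Csf1r and Spi1 are among the genes with no promoter in the RefSeq table. By gene, 12 of 15 general members, 3 of 7 resident members and 2 of 4 monocyte members held GAGGAA. A match is not a measured binding site, and some members that were not higher in KO, such as Fcgr1, Trem2 and Hpgd, held it too. Printed 5′ to 3′ on the strand of the gene are the promoters of the 4 members with the smallest p that have an entry in the table, and that of Hpgd, the member with the smallest p among those with a negative log2 fold change. Capitals mark GAGGAA or its reverse complement TTCCTC. Marco (chr1:120505025-120505274, minus strand) has it 146 bases before the start, Fcgr4 (chr1:171018676-171018925, plus strand) 22 bases before it on the opposite strand, within GAGGAAGT, and Hpgd (chr8:56294302-56294551, plus strand) 230 bases before it, also on the opposite strand. Timd4 (chr11:46810549-46810798, plus strand) and Lyz2 (chr10:117282273-117282522, minus strand) have none in this window, though Lyz2 holds AGGAAGT on the opposite strand.
Marco: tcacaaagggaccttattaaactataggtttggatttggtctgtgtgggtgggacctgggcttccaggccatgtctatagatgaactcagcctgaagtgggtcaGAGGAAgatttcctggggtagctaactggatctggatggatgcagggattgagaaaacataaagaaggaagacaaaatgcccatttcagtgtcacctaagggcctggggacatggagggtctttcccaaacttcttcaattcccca
Fcgr4: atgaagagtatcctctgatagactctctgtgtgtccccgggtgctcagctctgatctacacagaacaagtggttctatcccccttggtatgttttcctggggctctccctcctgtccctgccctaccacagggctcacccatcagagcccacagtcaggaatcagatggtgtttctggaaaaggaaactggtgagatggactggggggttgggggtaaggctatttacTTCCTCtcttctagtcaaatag
Timd4: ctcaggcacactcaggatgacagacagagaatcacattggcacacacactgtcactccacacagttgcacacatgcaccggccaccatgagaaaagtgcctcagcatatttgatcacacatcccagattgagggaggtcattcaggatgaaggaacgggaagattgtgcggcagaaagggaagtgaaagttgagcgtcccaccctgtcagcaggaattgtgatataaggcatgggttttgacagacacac
Lyz2: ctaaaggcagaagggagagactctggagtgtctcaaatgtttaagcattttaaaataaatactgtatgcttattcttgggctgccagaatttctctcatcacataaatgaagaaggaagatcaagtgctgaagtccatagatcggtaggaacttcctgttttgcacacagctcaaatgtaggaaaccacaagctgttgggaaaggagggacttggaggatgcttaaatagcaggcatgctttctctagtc
Hpgd: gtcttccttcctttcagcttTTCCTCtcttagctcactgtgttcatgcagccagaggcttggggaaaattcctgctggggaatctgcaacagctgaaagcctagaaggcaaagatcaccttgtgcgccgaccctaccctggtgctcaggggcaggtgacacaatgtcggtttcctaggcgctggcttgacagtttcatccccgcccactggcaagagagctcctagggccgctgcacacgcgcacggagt

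Other genes of the macrophage programme were read from lists outside the members. Over all tested genes 13% had an unadjusted p under 0.05 in either direction and DESeq2 called 4.15%, and the counts of the lists stand beside these shares. Of 7 tested growth factors and niche signals 0 were called by edgeR or DESeq2 and 0 had an unadjusted p under 0.05. Csf1, the main ligand of Csf1r, had 6.72 and 8.28 CPM in WT against 8.33 and 8.85 CPM in KO, and Gdf2, which stellate cells supply to Kupffer cells, 12.0 and 14.9 in WT and 12.6 and 14.3 in KO. Of 16 macrophage transcription factors edgeR called 0, 3 had an unadjusted p under 0.05, and DESeq2 called 1 higher and 2 lower. The most abundant of these factors, Cebpa and Cebpb, are also hepatocyte genes and had log2 fold changes of 0.16 and -0.37.

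Of 18 further Kupffer genes edgeR called 0 and 5 had an unadjusted p under 0.05; DESeq2 called Slc11a1 and Siglec1 higher and Pltp lower. The median log2 fold change was 0.26. Slco2b1 and Slc40a1, the most abundant of them and also expressed outside macrophages, had -0.16 and -0.11. Among 16 genes of the phagocyte oxidase, lysosome and integrins edgeR called 0, 7 had an unadjusted p under 0.05, and DESeq2 called Ctsc higher. Lamp1 and Ctsb, lysosomal genes of all cells, had -0.14 and -0.18, and the median was 0.45.

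Among 14 tested chemokines and cytokines edgeR called 0, 4 had an unadjusted p under 0.05 and DESeq2 called Ccl6 higher. Ccl9 had 25.3 and 29.6 CPM in WT and 40.02 and 52.5 CPM in KO (log2 fold change 0.75, adjusted p = 0.151), and Arg1, which in liver is mainly the urea cycle enzyme of hepatocytes, had -0.09. The inflammatory genes Tnf, Il6, Il10 and Nos2 had between 0 and 10 reads in a library and were not tested. Of 10 genes of lipid-associated macrophages, Fabp5 and Lpl rose (3.48 and 1.43, adjusted p = 0.0306 and 0.0369, edgeR) and Cd36 fell by 2.25 on the log2 scale (adjusted p = 0.00323). These 3 are also expressed by hepatocytes or adipocytes. Fabp5 was at 2.74 and 5.07 CPM in WT and 19.6 and 67.7 CPM in KO, with its KO libraries far apart. Lpl was at 4.76 and 7.15 CPM in WT and 14.3 and 17.7 CPM in KO. Cd36 was at 132 and 175 CPM in WT and 31.3 and 33.1 CPM in KO. The median log2 fold change of this list was 0.63, with 8 of 10 above 0.

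Markers of other cell types were measured beside the macrophage genes. Among 10 genes of all leukocytes edgeR called 0, 3 had an unadjusted p under 0.05 and DESeq2 called Ptprc higher; Ptprc, which encodes CD45, had 3.04 and 3.94 CPM in WT against 6.86 and 7.37 CPM in KO (log2 fold change 1.03, adjusted p = 0.089). Lcp1, the most abundant of them, had a log2 fold change of -0.02. The list had a median log2 fold change of 0.38, with 7 of 10 above 0 and 4 with both KO libraries above both WT libraries. Its summed levels, mostly Lcp1, were 137 and 127 CPM in WT and 146 and 133 CPM in KO. The dendritic cell list summed to 57.0 and 56.6 CPM in WT and 78.4 and 66.5 CPM in KO. It was led by the class II genes H2-Ab1 and H2-Aa (log2 fold changes 0.40 and 0.50). The median over the list was 0.23, with 6 of 10 above 0 and a lowest value of -1.25. EdgeR and DESeq2 called 0 of the 10, and 1 had an unadjusted p under 0.05.

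Neutrophil genes summed to 2.95 and 3.26 CPM in WT and 4.17 and 3.37 CPM in KO, with the defining genes Ly6g and Camp at 0 reads in all 4 libraries and log2 fold changes of 0.36 for Csf3r and -0.14 for Cxcr2; of the 5 tested genes edgeR and DESeq2 called 0 and 2 had an unadjusted p under 0.05. Those were S100a8 (4 and 8 reads in WT, 27 and 18 in KO, log2 fold change 1.77) and Mmp9 (20 in each WT library, 6 and 9 in KO, -1.49), named after their values were seen. T and NK cell genes summed to 3.73 and 2.99 CPM in WT and 3.96 and 4.40 CPM in KO. Of 15 listed genes 6 were high enough to test, with a median log2 fold change of 0.19 and 3 above 0. Their log2 fold changes ran from -0.37 to 2.13, with 1.15 for Cd4 and 0.50 for Ccl5. EdgeR and DESeq2 called 0 of the 6, and 1 had an unadjusted p under 0.05. The B and plasma cell list summed to 33.2 and 58.9 CPM in WT and 19.7 and 28.7 CPM in KO, mostly Ighm (log2 fold change -1.35, adjusted p = 0.124); edgeR called 0 of 7, 1 had an unadjusted p under 0.05 and DESeq2 called Ighm lower.

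Genes of sinusoidal endothelium were also mostly lower in WT replicate 1 than in WT replicate 2. WT replicate 2 was above WT replicate 1 in 10 of 12 endothelial genes, with a median log2 ratio of 0.62, and the median for KO over WT was 0.30 within number 1 and -0.33 within number 2. Stab1, a scavenger receptor of these cells, had 31.5 and 31.0 CPM in WT against 38.4 and 27.7 CPM in KO. Ptprb, the most abundant, had a log2 fold change of -0.04. EdgeR called 0 of the 12, 1 had an unadjusted p under 0.05 and DESeq2 called Lyve1 lower. Stellate cell and fibroblast genes were above WT replicate 1 in WT replicate 2 in 10 of 12, with a median KO over WT log2 fold change of -0.31 (Dcn -0.16, Reln -0.06), 0 called by edgeR or DESeq2 and 3 at an unadjusted p under 0.05. Genes of hepatocytes had a median log2 fold change of 0.12, with Ttr at 0.02; edgeR called 0 of 11, 2 had an unadjusted p under 0.05 and DESeq2 called Cps1 higher. Genes of cholangiocytes, the bile duct cells, had a median of 0.11 (Spp1 0.27), with 0 of 7 called by edgeR or DESeq2 and 0 at an unadjusted p under 0.05. Red blood cell genes summed to 270.1 and 305 CPM in WT against 186 and 206 CPM in KO, with a median of -0.80 (Hbb-bs -0.80, Alas2 -0.40). EdgeR called 0 of those 5, 4 had an unadjusted p under 0.05 and DESeq2 called 3 lower. Of 6 adipocyte genes Pparg, also active in hepatocytes, fell by 1.31 on the log2 scale (adjusted p = 0.0352, edgeR).

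The part of the cell make-up of each piece of liver in the macrophage result was not tested.

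**Figure D4:**
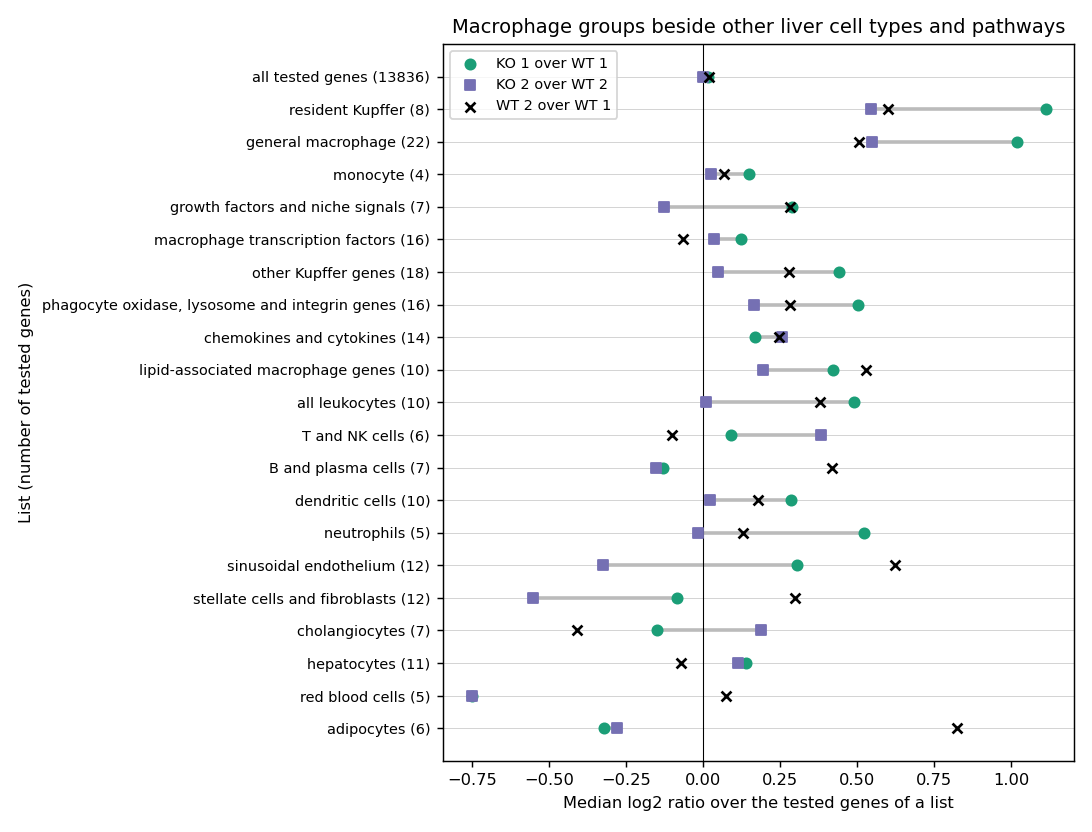
Median log2 ratio (CPM plus 0.5) over the tested genes of each list, for KO over WT within number 1 (circles) and number 2 (squares) and for WT replicate 2 over WT replicate 1 (crosses). Resident Kupffer and general macrophage genes lie to the right of 0 for all 3 ratios, at 0.51 or more, whereas the endothelial list has its cross at 0.62 and its squares at -0.33.

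Transcript length moves with the replicate number and was checked beside the members. In the shortest tested protein-coding genes (the lowest quartile, up to 2787 exon bases) the median log2 ratio of WT replicate 2 over WT replicate 1 was 0.22, and in the longest (the top quartile, from 6826 bases) -0.20. The 23 members within the lowest quartile, of up to 2740 bases, had 0.55 and the 11 longer members 0.28. Between genotypes these shortest and longest genes had median log2 fold changes of -0.06 and 0.06, and the short and long members 0.82 and 0.67. The part of length in the ratio between the WT libraries was not tested.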

How the data were processed

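Gene expression was measured by RNA-seq of polyadenylated liver RNA in 2 WT and 2 KO libraries, grouped by their titles. The deposited files hold raw counts of reads per Ensembl gene. Per the submitters' processing notes, TopHat2 2.1.1, HTSeq 0.6.0 and the mm10 build were used. Which annotation was counted, and with what options, is not given in the sources used here. GENCODE M21, on the same assembly, gave symbols, positions and exon lengths for 35533 of 37315 identifiers, and all 34 members matched once.

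From the counts, genes were filtered with filterByExpr (minimum count 10, minimum total 15; 13836 kept), scaled by TMM and tested with edgeR 4.0.16 in R 4.3.3 by its two-sided robust quasi-likelihood test in a model of genotype alone. Benjamini-Hochberg adjustment ran over all tested genes, with calls under 0.05. The SE was taken from the fold change and the root of its F statistic. Ratios between single libraries use log2 of CPM plus 0.5. Alternatives were DESeq2 size factors, library size alone, no filter on low counts, DESeq2 1.42.0, a replicate block, and leaving out each library. Every pair of libraries differed beyond sampling noise (chi-square per degree of freedom at least 86.5), and each was counted as 1 replicate. This cannot tell separate animals from separate preparations of 1 liver.

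In simulated counts for KO against WT (13836 genes, 3 runs, 200 changed genes), 52.3% of 2-fold and 98.7% of 4-fold changes were recovered, with 5.03% false calls. The members, their grouping and the gene lists were chosen with earlier results of these data known. Named genes are Fto, all members, and from each other list the called genes (up to 4) or, where none was called, up to 2 with the highest mean level; DESeq2 calls and genes said to be so were named after their values were seen. Results for some genes of the other lists are not reported here.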

Additional observations from a re-analysis of the deposited data

How the results depend on the processing

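The count of called members depended on the setting. From 3 of 34 it went to 4 with DESeq2 size factors, 2 with library size alone, 18 with no filter on low counts, 9 with the DESeq2 test, and 3 to 20 when 1 library was left out; over all genes the 264 calls became 829 with no filter, 574 with the DESeq2 test and 460 to 633 with 1 library left out. The share called over all tested genes was 1.91% in the main fit, 2.04% with DESeq2 size factors and 1.27% with library size alone. It was 3.7% with no filter, where 22419 genes were tested instead of 13836, and 4.15% with the DESeq2 test. Resident members called were 1, and 2 with DESeq2 size factors, 6 with no filter and 2 with the DESeq2 test. General members called were 2, and 1 with library size alone, 12 with no filter, 7 with the DESeq2 test and 1 to 13 with 1 library left out. Marco and Fcgr4 were called throughout.

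With a replicate block, 24 members were called (7 resident, 16 general and 1 monocyte), 23 higher and Hpgd lower, among 2729 calls over all genes, or 19.7% of those tested. The labels give equal numbers no meaning. Deviations of equally numbered libraries correlated with 0.54 over all tested genes and 0.33 over the members, so equal numbers may share something, but with 2 pairs this does not settle the pairing, and the fit without the block is the one reported.

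With 1 library left out, they ranged from 0.49 to 1.28 for resident genes, 0.51 to 1.11 for general genes and -0.18 to 0.12 for monocyte genes. With Adgre1 counted as general and Fcgr4 as monocyte, the monocyte median was 0.67. Signs of single members turned only near 0, with 1 library left out, and the log2 fold changes then ranged from -0.11 to 0.74 for Mrc1 (lowest without WT replicate 1), from -0.42 to 0.062 for Fcgr1 (highest without WT replicate 2), from -0.049 to 0.065 for Trem2 (below 0 without WT replicate 2 or KO replicate 1) and from -0.087 to 0.61 for Aif1 (lowest without KO replicate 2). The count of 26 members with both KO libraries above both WT libraries was 26 with both other scalings, which were added after the data were seen. The cause of these shifts was not tested. With 1 library left out, the lone library of a genotype is assumed to vary like the other group.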
